A study of Mus musculus with 18 samples.

Results

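The clustered histone genes encode the core histones H2A, H2B, H3 and H4 and the linker histone H1, which package newly copied DNA. Members were the protein-coding genes of the deposited count table whose names start with Hist1h, Hist2h, Hist3h or Hist4h, or with H1f, H2ac, H2bc, H3c or H4c and a digit, and that reached 10 counts in at least 6 of the 18 samples. This gave 54 of the 55385 genes in the table, out of 68 protein-coding genes with such names. By class, 7 were H1, 11 H2A, 13 H2B, 11 H3 and 12 H4 genes. The table mixes newer names with older ones (Hist1h2an, Hist1h2ao, Hist1h4m and Hist1h4n among the members), so both name forms were taken. By position, 45 lay in the large cluster on chromosome 13 and 7 in the cluster on chromosome 3, while H1f0 on chromosome 15 and H1f10 on chromosome 6 met the name rule but lie outside the clusters. The 14 named genes that were not members reached 10 counts in at most 5 samples. H2ac12 stood just outside with 5 such samples, and H2ac19 and H3c10 just inside with 6.

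Replication-dependent histone mRNAs differ from nearly all other mRNAs of animal cells. They end in a conserved stem-loop bound by the protein SLBP instead of a poly(A) tail, and they are made in large amounts in S phase and degraded when DNA synthesis stops. Some clustered genes also make a longer, polyadenylated transcript, which has been described in differentiating and resting cells, and poly(A)-selected libraries capture mainly that form.

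Poly(A)-selected RNA of spleen was sequenced in 18 samples of 3 genotypes, with 3 from males and 3 from females in each. The wild-type (WT) group held 6 samples of C57BL/6J mice. The 6 Dp16 samples are from mice that carry an extra copy of a segment of chromosome 16 that is orthologous to much of human chromosome 21, a model of Down syndrome. The 6 Dp16_2xIFNRs samples are from mice with the same segment, in which the interferon receptor genes were brought back to the normal dose. No treatment is named. The age label ran from 17.1 to 18.0 in the WT and Dp16 groups and from 17.7 to 18.0 in the Dp16_2xIFNRs group, under a tag that counts days from conception, although the series title speaks of adult mice; its unit was therefore not interpreted. The segment is triplicated in Dp16 and Dp16_2xIFNRs mice alike, and no histone member lies on chromosome 16. Spleen of adult mice makes red cells, platelets and granulocytes beside its lymphocytes, and bulk RNA cannot tell fewer cells of a type from less RNA per cell.

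Libraries held 33998427 to 53021480 counts. The 4 receptor genes were higher in Dp16 than in WT and lower in Dp16_2xIFNRs than in Dp16. Ifnar2 lay at 86.9 to 98.5 CPM (counts scaled to the library total) in WT, 125 to 148 in Dp16 and 86.9 to 98.4 in Dp16_2xIFNRs samples, and Ifnar1, Ifngr2 and Il10rb had log2 fold changes of 0.30, 0.30 and 0.46 in Dp16 against WT. In Dp16_2xIFNRs against WT their values were -0.17, -0.27 and -0.07, of which Ifngr2 passed the test (adjusted p = 0.0147 by edgeR's quasi-likelihood test; 62.9 to 81.7 CPM against 82.5 to 104.9 in WT). Genes of B cells, a main cell type of spleen, were high, with 15 of them summing to 3056 to 7107 CPM per sample. Several libraries stood apart in RNAs that carry no poly(A) tail. Gm42418, which overlaps ribosomal RNA sequence, took 5.51% of counts in WT replicate 4, 4.55% and 4.41% in Dp16 replicates 2 and 3, 4.40% in Dp16_2xIFNRs replicate 5, and 0.691% to 2.94% in the other 14. Rn7sk, a small nuclear RNA made by RNA polymerase III, reached 105, 116, 74.9 and 90.6 CPM in those 4 libraries and 8.51 to 74.5 CPM in the other 14. Calls, medians and sums of the members are given with and without these 4 libraries.

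The stem-loops of the called members are shown because they mark the end that poly(A) selection should leave behind. A perfect stem of 6 base pairs around a loop of 4 bases was found in the 3′ UTR of 35 of the 54 members in GENCODE vM21 (GRCm38), and 10 members had no annotated 3′ UTR in which to look. The commonest form, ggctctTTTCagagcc with the loop in capitals, occurred in 19 members. Another 6 members, all H4 genes, had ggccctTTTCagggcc, 5 had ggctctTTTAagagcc, 2 (H4c9 and H4c14) had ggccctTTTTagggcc, 2 (H4c11 and H4c2) had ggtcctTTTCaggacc and H2ac20 had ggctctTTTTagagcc. The stem-loop began 22 to 59 bases after the stop codon, with a median of 32. In the annotated transcript 3 to 4884 bases followed it, with a median of 74, so that 18 members end within 100 bases of the stem-loop and 15 run on for 300 bases or more. Sites of 30 bases are given 5′ to 3′ on the gene's strand with stem and loop in capitals, for the called members that have one.
H1f2, chr13:23739506-23739535, plus strand: ccaaaaGGCTCTTTTCAGAGCCaccactcc
H4c9, chr13:22040958-22040987, minus strand: cttaaaGGCCCTTTTTAGGGCCaccacaaa
H3c3, chr13:23745039-23745068, minus strand: aaaaaaGGCTCTTTTAAGAGCCacctaaga
H2ac11, chr13:22042475-22042504, minus strand: aacaaaGGCTCTTTTCAGAGCCacctaacc
H2bc14, chr13:21722500-21722529, plus strand: cacaaaGGCTCTTTTCAGAGCCactaagca
Hist1h4n, chr13:21831790-21831819, minus strand: actaaaGGCCCTTTTCAGGGCCatccaatt
The called member H2bc4 had no such stem-loop in its annotated 3′ UTR, which belongs to a transcript of 2 exons. In H1f2 the annotated transcript ran 840 bases past the stem-loop and in H4c9 330 bases.

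Promoter sequence was available from RefSeq (GRCm38.p6) for 48 of the 54 members, covering 250 bases before to 50 after the start. Both strands were searched for CCAAT (the CCAAT box), for the TATA box spelled TATAAA and for ATTTGCAT, the octamer bound by POU factors; none of these spellings contains another. CCAAT occurred in 38 of the 48 (79.2%), against 37.9% of 27025 promoters of the same length, and was found in all 11 H2A, all 11 H2B and all 9 H3 promoters but in 3 of 11 H4 and 4 of 6 H1 promoters. TATAAA occurred in 26 of 48 (54.2%, against 14.2%), and the octamer in 9 of 48 (18.8%, against 1.75%), namely 4 H2A and 5 H2B promoters. A match is a description of letters, not of a bound factor. The promoters of H2ac8 and H2bc8, H2ac11 and H2bc11, H2ac13 and H2bc13, and H2ac15 and H2bc15 overlap on opposite strands. A match in the shared bases was therefore counted for each gene of the pair. Starts are those of RefSeq, and part of the H3c3 stretch lies inside the gene as GENCODE vM21 places it. Hist1h4n also has an entry but was called only in Dp16_2xIFNRs against WT, and its stretch is not given. The 150 bases before the start follow for the members with an entry that were called higher in Dp16 against WT. These stretches are given 5′ to 3′ on the gene's strand, with the searched letters of either strand in capitals.
H1f2, chr13:23738657-23738806, plus strand: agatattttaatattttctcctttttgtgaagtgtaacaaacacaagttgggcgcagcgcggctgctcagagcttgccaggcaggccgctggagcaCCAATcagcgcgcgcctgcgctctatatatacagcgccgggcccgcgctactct
H4c9, chr13:22041363-22041512, minus strand: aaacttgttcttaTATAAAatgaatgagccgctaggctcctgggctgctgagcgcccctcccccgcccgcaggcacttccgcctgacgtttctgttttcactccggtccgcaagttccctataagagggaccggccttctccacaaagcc
H2bc14, chr13:21721894-21722043, plus strand: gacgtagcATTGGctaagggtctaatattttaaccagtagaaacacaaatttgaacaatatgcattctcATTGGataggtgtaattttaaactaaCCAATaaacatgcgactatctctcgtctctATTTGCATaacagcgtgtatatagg
H2ac11, chr13:22042950-22043099, minus strand: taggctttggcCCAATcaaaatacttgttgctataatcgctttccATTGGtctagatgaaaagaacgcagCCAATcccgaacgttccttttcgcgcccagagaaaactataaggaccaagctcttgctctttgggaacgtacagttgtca
H3c3, chr13:23745522-23745671, minus strand: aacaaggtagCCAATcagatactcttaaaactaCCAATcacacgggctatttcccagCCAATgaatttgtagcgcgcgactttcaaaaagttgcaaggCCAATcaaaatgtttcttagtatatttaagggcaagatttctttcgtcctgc

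Histone gene RNA was scarce in these libraries and came mostly from a few members. Per length, in RPKM (reads scaled to gene length in kilobases and to library size), the 54 members averaged from 0.268 (H3c15) to 30.4 (H1f2) over the 18 samples, with a median of 1.86. The median level was 3.22 RPKM for H1, 2.82 for H4, 1.72 for H2B, 1.56 for H3 and 1.22 for H2A genes. After H1f2 came H4c9 at 23.0, H2bc4 at 19.4, H1f0 at 15.8, H1f10 at 6.29, H2ac15 at 5.63 and H2bc21 at 5.41 RPKM. H1f0 and H1f10 are linker histone genes that are expressed outside S phase, and H2bc21 and H2bc4 are H2B genes known to make polyadenylated mRNA.

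**Figure D1:**
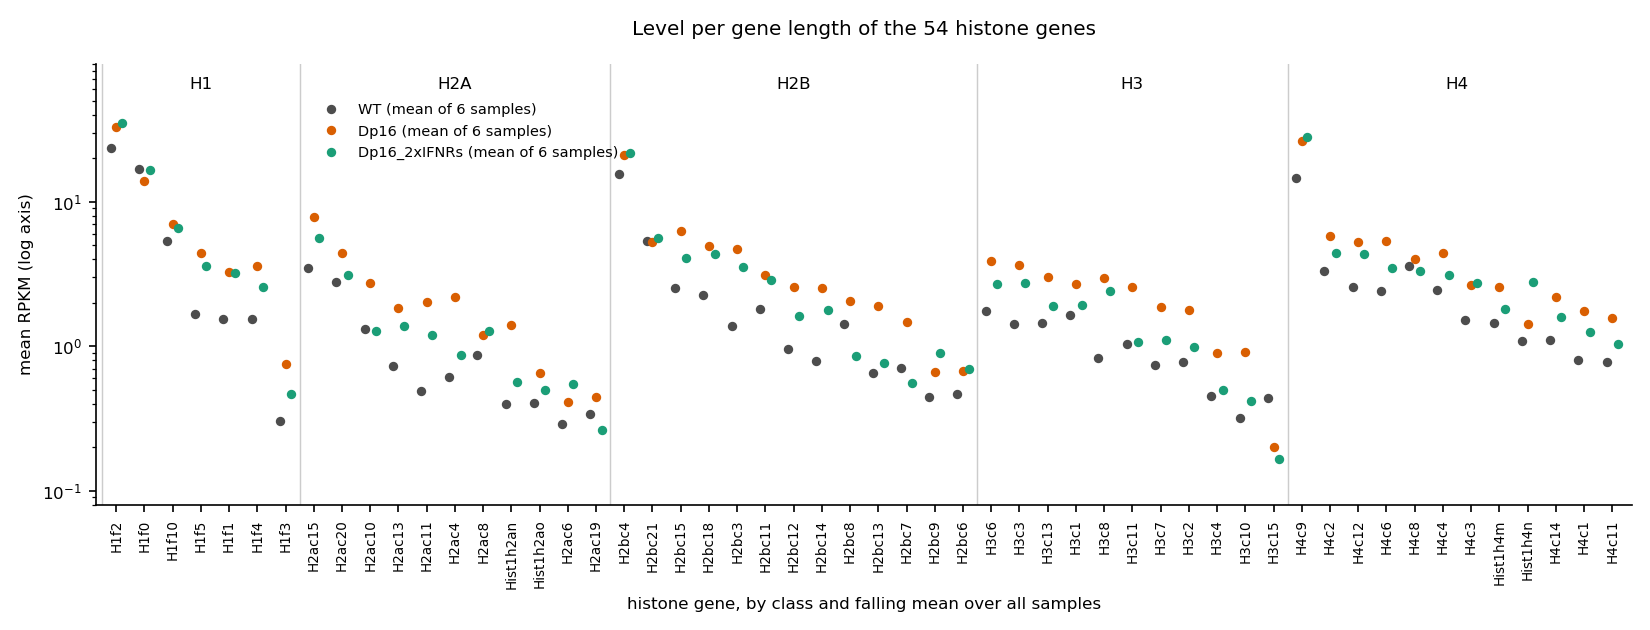
Mean RPKM (log axis) of each of the 54 members in each genotype (1 point per member and genotype, mean of 6 samples), grouped by class and ordered by the mean over all samples. H1f2, H4c9 and H2bc4 lie highest, at 30.4, 23.0 and 19.4 RPKM over the 18 samples, with their WT points lowest of the 3.

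In counts the concentration was stronger. H1f2 held 23.4% of all counts on members, H1f0 16.0%, H2bc4 11.1%, H4c9 8.25% and H2bc21 7.02%, which together is 65.8%. The 11 members that averaged 100 counts or more per library held 78.0%, and the other 43 averaged fewer. The poly(A) signals AATAAA or ATTAAA lay in the last 50 bases of the annotated transcript in 11 members, which held 62.5% of the counts, and 7 of these 11 also had a stem-loop further upstream. Members with a 3′ UTR of 300 bases or more numbered 19 and held 82.4%.

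Sequence copies limit which member a read can be given to. Of 100-base windows of the transcript, at least 80% were found in no other gene for 19 members, under 20% for 9 and none for 3. The annotation has 16 members that overlap a gene on the other strand and 5 that overlap a gene on the same strand, among them H1f4 and H2bc6, which overlap each other. The handling of reads with several matches is not given in the sources used here. The shares of unique windows were 94.9% for H1f2, 84.9% for H4c9, 74.6% for H2bc4, 93.4% for H2bc14, 71.6% for H3c3, 23.8% for H2ac11 and 19.3% for Hist1h4n, so values of the last 2 are uncertain.

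In Dp16 against WT spleen, 6 of 53 tested members rose and none fell, by edgeR's quasi-likelihood test with Benjamini-Hochberg adjustment over 18634 genes. That is 11.3% of the members, beside 16.6% of all tested genes called higher and 13.2% called lower (29.8% in either direction). In 6 of 32 alternative fits the members' share exceeded that of all genes: 32.1% beside 9.08% with the description number as a block, 30.2% beside 16.6% with a Gm42418 term, 30.2% beside 16.4% without WT replicate 2, 22.6% beside 17.0% with DESeq2, and 17.0% beside 15.4% and 16.4% without Dp16 replicate 5 and Dp16_2xIFNRs replicate 5. The description block had no sex term. In it WT replicates 1, 2 and 5, Dp16 replicates 4, 5 and 6 and Dp16_2xIFNRs replicate 1 add nothing to the contrasts. Each of these samples had a number of its own. The 6 members called in the main fit were H4c9, H2bc4, H1f2, H3c3, H2ac11 and H2bc14. Fitted values above WT were common, with 51 of 53 log2 fold changes positive and a median of 1.17, against a median of -0.01 over all genes, while the typical standard error of a member was 0.67. Without adjustment, 16 of 53 members had p under 0.05, beside 7287 of all 18634 genes. The member left untested, H2ac19, was too low in all 3 genotypes, at a median of 0.166, 0.168 and 0.169 CPM.

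H1f2 encodes the linker histone H1.2 and lies at chr13:23738808-23740367 on the plus strand, a single exon with a 3′ UTR of 880 bases. WT samples lay at 28.7, 34.2 and 46.6 CPM (lowest, median, highest), Dp16 samples at 37.7, 51.1 and 68.2, and Dp16_2xIFNRs samples at 47.4, 54.9 and 62.0. WT replicates 2 and 5 reached into the Dp16 range, while all 6 Dp16_2xIFNRs samples lay above all 6 WT samples. H1f2 rose by 0.60 on the log2 scale in Dp16 (SE 0.12, adjusted p = 0.00094 by edgeR's quasi-likelihood test) and by 0.70 in Dp16_2xIFNRs (SE 0.12, adjusted p = 0.000259), both against the same WT samples.

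H2bc4 encodes an H2B and lies at chr13:23684199-23692908 on the plus strand. Its CPM was 13.95, 16.9 and 22.05 in WT, 21.0, 24.9 and 27.85 in Dp16 and 22.4, 25.1 and 27.3 in Dp16_2xIFNRs samples. WT replicates 2 and 5 just reached into the Dp16 range, and every WT sample stayed below every Dp16_2xIFNRs sample. The log2 fold change was 0.57 in Dp16 (SE 0.11, adjusted p = 0.000731 by edgeR's quasi-likelihood test) and 0.60 in Dp16_2xIFNRs (SE 0.11, adjusted p = 0.000433).

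H4c9 encodes histone H4 and lies at chr13:22040636-22041362 on the minus strand. It had the largest change of these 3 abundant genes, with WT samples at 8.11, 8.92 and 16.6 CPM, Dp16 samples at 14.15, 19.25 and 24.2 and Dp16_2xIFNRs samples at 15.9, 21.8 and 23.8. WT replicate 2, at 16.6, was the only WT sample above the lowest sample of either other group. H4c9 rose by 0.96 in Dp16 (SE 0.18, adjusted p = 0.000551 by edgeR's quasi-likelihood test) and by 1.06 in Dp16_2xIFNRs (SE 0.18, adjusted p = 0.000245). H1f2, H2bc4 and H4c9 kept their calls in both contrasts when any of the 18 samples was left out, and without the 4 libraries richest in Gm42418 their log2 fold changes in Dp16 were 0.62, 0.50 and 0.77 (adjusted p = 0.0128, 0.0115 and 0.0157). Of the 14 other alternatives 13 kept the 3 calls; the exception, a fit with erythroid and neutrophil marker levels as further terms, put H1f2 at -0.56 and called no gene of the 18634 higher.

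The other 3 called members were far scarcer, with adjusted p closer to 0.05. The calls of H3c3, H2ac11 and H2bc14 ended in 6, 8 and 12 of the 18 fits that left out a sample. H3c3, an H3 gene at chr13:23744973-23745602 on the minus strand, lay at 0.207, 0.815 and 1.68 CPM in WT, 0.797, 2.06 and 4.31 in Dp16 and 0.792, 1.35 and 3.96 in Dp16_2xIFNRs samples. All 3 groups overlapped. It rose by 1.45 in Dp16 (SE 0.50, adjusted p = 0.0316 by edgeR's quasi-likelihood test), and its value in Dp16_2xIFNRs was 1.04 (adjusted p = 0.124). The call was lost without Dp16 replicate 2 or 3 or WT replicate 1, 3, 4 or 5, where the log2 fold change was 0.98 to 1.44 and the adjusted p 0.0584 to 0.164, and with limma voom and with no filter.

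H2ac11, an H2A gene at chr13:22042460-22042944 on the minus strand that overlaps Gm44486 on the other strand, lay at 0.0271, 0.223 and 0.515 CPM in WT, 0, 0.821 and 2.47 in Dp16 and 0.189, 0.607 and 1.08 in Dp16_2xIFNRs samples. The 0 in Dp16 leaves room for 3 counts, which at the depths of these libraries is 0.0566 to 0.0882 CPM, counting error only. H2ac11 rose by 2.09 in Dp16 (SE 0.74, adjusted p = 0.0377 by edgeR's quasi-likelihood test), with a value of 1.42 in Dp16_2xIFNRs (adjusted p = 0.157), and the groups overlapped. Leaving out Dp16 replicate 2, 3 or 4 or WT replicate 1, 3, 4, 5 or 6 ended the call, at 1.59 to 2.12 with adjusted p from 0.0506 to 0.133. So did the replicate block, the description block, limma voom, limma on RPKM and a fit of the 12 samples alone.

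H2bc14 is an H2B gene that was described after its value was seen, since the rule for which members to describe did not pick it. It lies at chr13:21722044-21722567 on the plus strand, with samples at 0, 0.323 and 1.21 CPM in WT, 0.504, 1.19 and 2.27 in Dp16 and 0.339, 0.911 and 1.76 in Dp16_2xIFNRs samples. H2bc14 rose by 1.81 in Dp16 (SE 0.67, adjusted p = 0.0484 by edgeR's quasi-likelihood test), beside 1.32 in Dp16_2xIFNRs (adjusted p = 0.152). The call ended without WT replicate 1, 3, 4, 5 or 6, Dp16 replicate 2, 3, 4 or 5, or Dp16_2xIFNRs replicate 3, 4 or 6, where the log2 fold change was 1.515 to 1.91 and the adjusted p 0.0537 to 0.130. It ended too with the replicate block, the description block, no filter, upper quartile scaling and a fit of the 12 samples alone. Without the 4 libraries richest in Gm42418, the log2 fold changes of H3c3, H2ac11 and H2bc14 were 0.56, 1.53 and 1.64 with adjusted p of 0.365, 0.25 and 0.189, and the median over the members was 0.39 in place of 1.17.

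**Figure D2:**
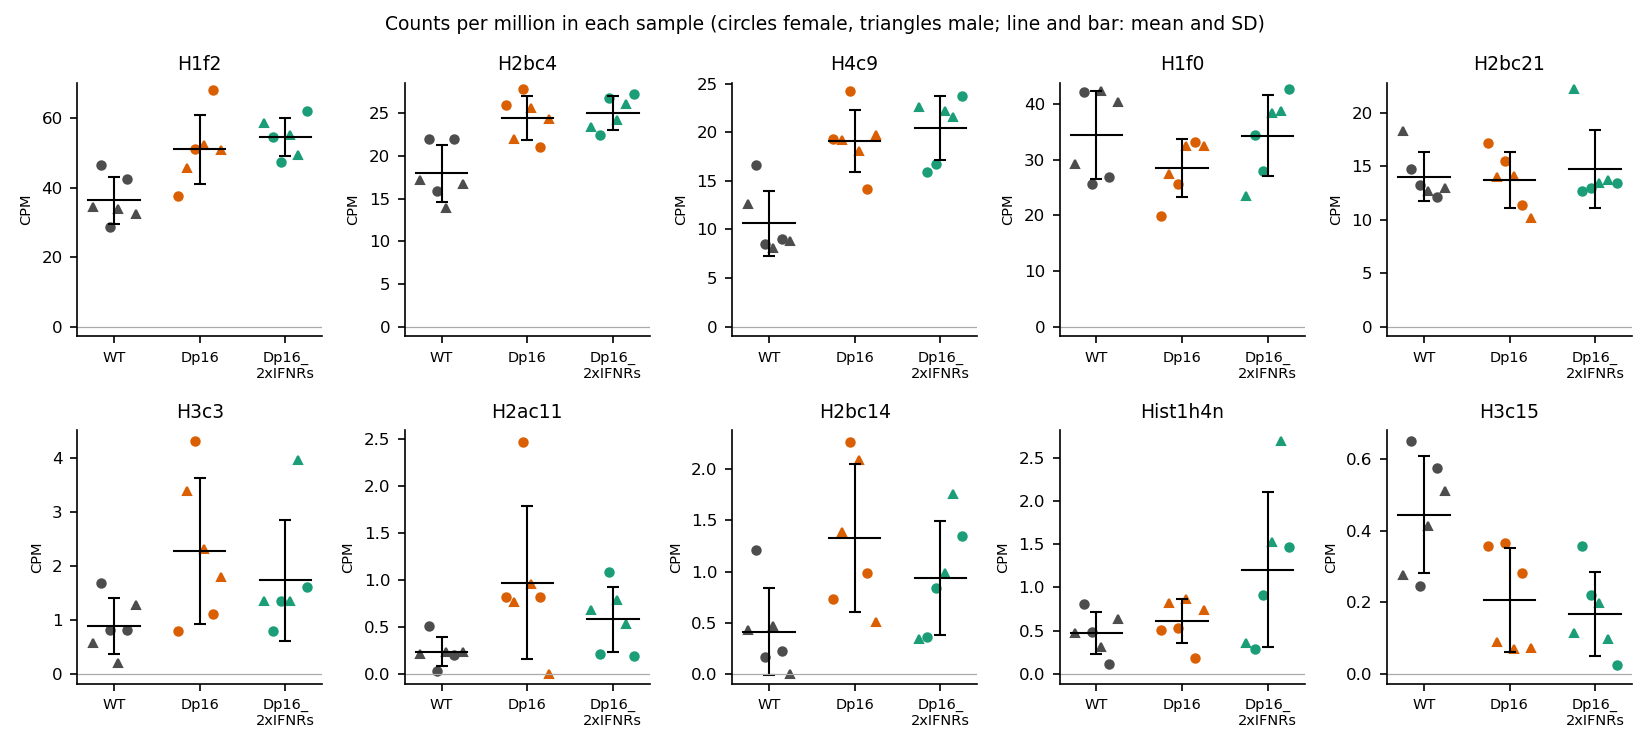
CPM of 10 members in each of the 18 samples by genotype, with circles for females, triangles for males, and the mean and SD of each group of 6. H4c9 lies at 8.11 to 16.6 CPM in WT and at 14.15 to 24.2 in Dp16 samples, while H1f0 and H2bc21 overlap among all 3 genotypes.

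In Dp16_2xIFNRs against WT, 4 of 53 members rose and none fell, which is 7.55% beside 17.3% of all genes called higher and 14.2% called lower (31.4% in either direction). The members' share exceeded that of all genes in 3 of 32 alternative fits: 30.2% beside 17.5% with a Gm42418 term, 22.6% beside 14.3% with the description number as a block, and 20.8% beside 16.8% without WT replicate 2. Positive values numbered 49, with a median of 0.66 against -0.01 over all genes. An unadjusted p under 0.05 was found for 9 of 53 members, beside 7542 of all 18634 genes. H1f2, H2bc4 and H4c9 were called as above. The fourth was Hist1h4n, an H4 gene at chr13:21831767-21832196 on the minus strand, which lay at 0.11, 0.478 and 0.806 CPM in WT, 0.188, 0.635 and 0.871 in Dp16 and 0.283, 1.19 and 2.69 in Dp16_2xIFNRs samples. Its log2 fold change against WT was 1.41 in Dp16_2xIFNRs (SE 0.53, adjusted p = 0.0489 by edgeR's quasi-likelihood test) and 0.40 in Dp16, where it was not called. All 3 groups overlapped, and the call ended in 14 of 18 fits that left out a sample: WT replicate 1, 3, 4, 5 or 6, Dp16 replicate 1, 2, 3, 4 or 6, or Dp16_2xIFNRs replicate 3, 4, 5 or 6, with log2 fold changes of 1.08 to 1.48 and adjusted p from 0.0541 to 0.164. Of 13 other alternatives 4 kept the call; it ended with limma voom, limma on RPKM, the replicate and description blocks, upper quartile scaling, no filter, the 12 samples alone, the erythroid and neutrophil terms, and without the 4 libraries richest in Gm42418 (0.98, adjusted p = 0.275).

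H1f2 and H2bc4 were the only members of 54 whose Dp16_2xIFNRs samples all lay above all WT samples, and no member separated Dp16 from WT in this way. The share of all genes that separate in this way was not counted, so whether these counts are high or low is not known.

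Some of the most abundant members were not called in either contrast. H1f0, the gene of linker histone H1.0 at chr15:79028450-79030504 on the plus strand, lay at 25.65, 34.7 and 42.3 CPM in WT, 19.9, 29.9 and 33.15 in Dp16 and 23.4, 36.4 and 42.6 in Dp16_2xIFNRs samples. The groups overlapped, and the log2 differences from WT were -0.16 (SE 0.17, adjusted p = 0.55 by edgeR's quasi-likelihood test) and 0.12 (SE 0.17). H2bc21, an H2B gene at chr3:96221119-96223738 on the plus strand with a 3′ UTR of 2192 bases, lay at 12.15, 13.1 and 18.35 CPM in WT, 10.15, 14.05 and 17.15 in Dp16 and 12.7, 13.4 and 22.2 in Dp16_2xIFNRs samples. Its log2 values were 0.09 and 0.18 (SE 0.15 each), again with overlapping groups. H1f10, another linker histone gene, stood at 0.54 and 0.42 (SE 0.30 each, not called).

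The lowest value among members was that of H3c15, an H3 gene at chr3:96238108-96239127 on the minus strand, of which 38.4% of windows are unique. WT samples lay at 0.244, 0.462 and 0.649 CPM, Dp16 samples at 0.0688, 0.185 and 0.367 and Dp16_2xIFNRs samples at 0.0236, 0.155 and 0.358, an average of 12.1 counts per library. The differences of -1.20 (SE 0.62, adjusted p = 0.16 by edgeR's quasi-likelihood test) and -1.33 (SE 0.62, adjusted p = 0.112) did not pass the test, and the groups overlapped. On log2(RPKM + 0.1) with limma, H3c15 was called lower in both contrasts.

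Median log2 fold changes by class in Dp16 were 1.21 for H1, 1.22 for H2A, 0.90 for H2B, 1.29 for H3 and 0.99 for H4 genes. Called were 1 of 7, 1 of 10, 2 of 13, 1 of 11 and 1 of 12. These shares were 14.3%, 10.0%, 15.4%, 9.09% and 8.33%, beside 16.6% of all genes called higher. In Dp16_2xIFNRs against the same WT samples the medians were 0.71, 0.63, 0.76, 0.39 and 0.60, with 1, 0, 1, 0 and 2 called. These shares were 14.3%, 0%, 7.69%, 0% and 16.7%, beside 17.3% of all genes. No difference between classes was tested. By position, all 45 members on chromosome 13 had positive values in Dp16 (median 1.21). Of these 6 were called, or 13.3%, beside 16.6% of all genes called higher. On chromosome 3, 5 of 6 tested members had positive values (median 0.94) and none was called. By transcript end, the 11 members with a poly(A) signal had median log2 fold changes of 0.60 in Dp16 and 0.62 in Dp16_2xIFNRs, with 2 of 11 called in each. The 42 tested members without it had 1.22 and 0.71, with 4 of 42 and 2 of 42 called. Without the 4 libraries richest in Gm42418 the class medians in Dp16 were 0.51, 0.25, 0.29, 0.57 and 0.29 from H1 to H4, and in Dp16_2xIFNRs 0.37, 0.36, 0.37, 0.14 and 0.14. On chromosome 13 the median in Dp16 was then 0.51, with 36 of 44 values positive and 3 called, beside 13.1% of all genes called higher. On chromosome 3 it was 0.11, with 3 of 6 values positive and none called. Members with and without a poly(A) signal then had medians of 0.23 and 0.50 in Dp16 and 0.37 and 0.26 in Dp16_2xIFNRs.

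**Figure D3:**
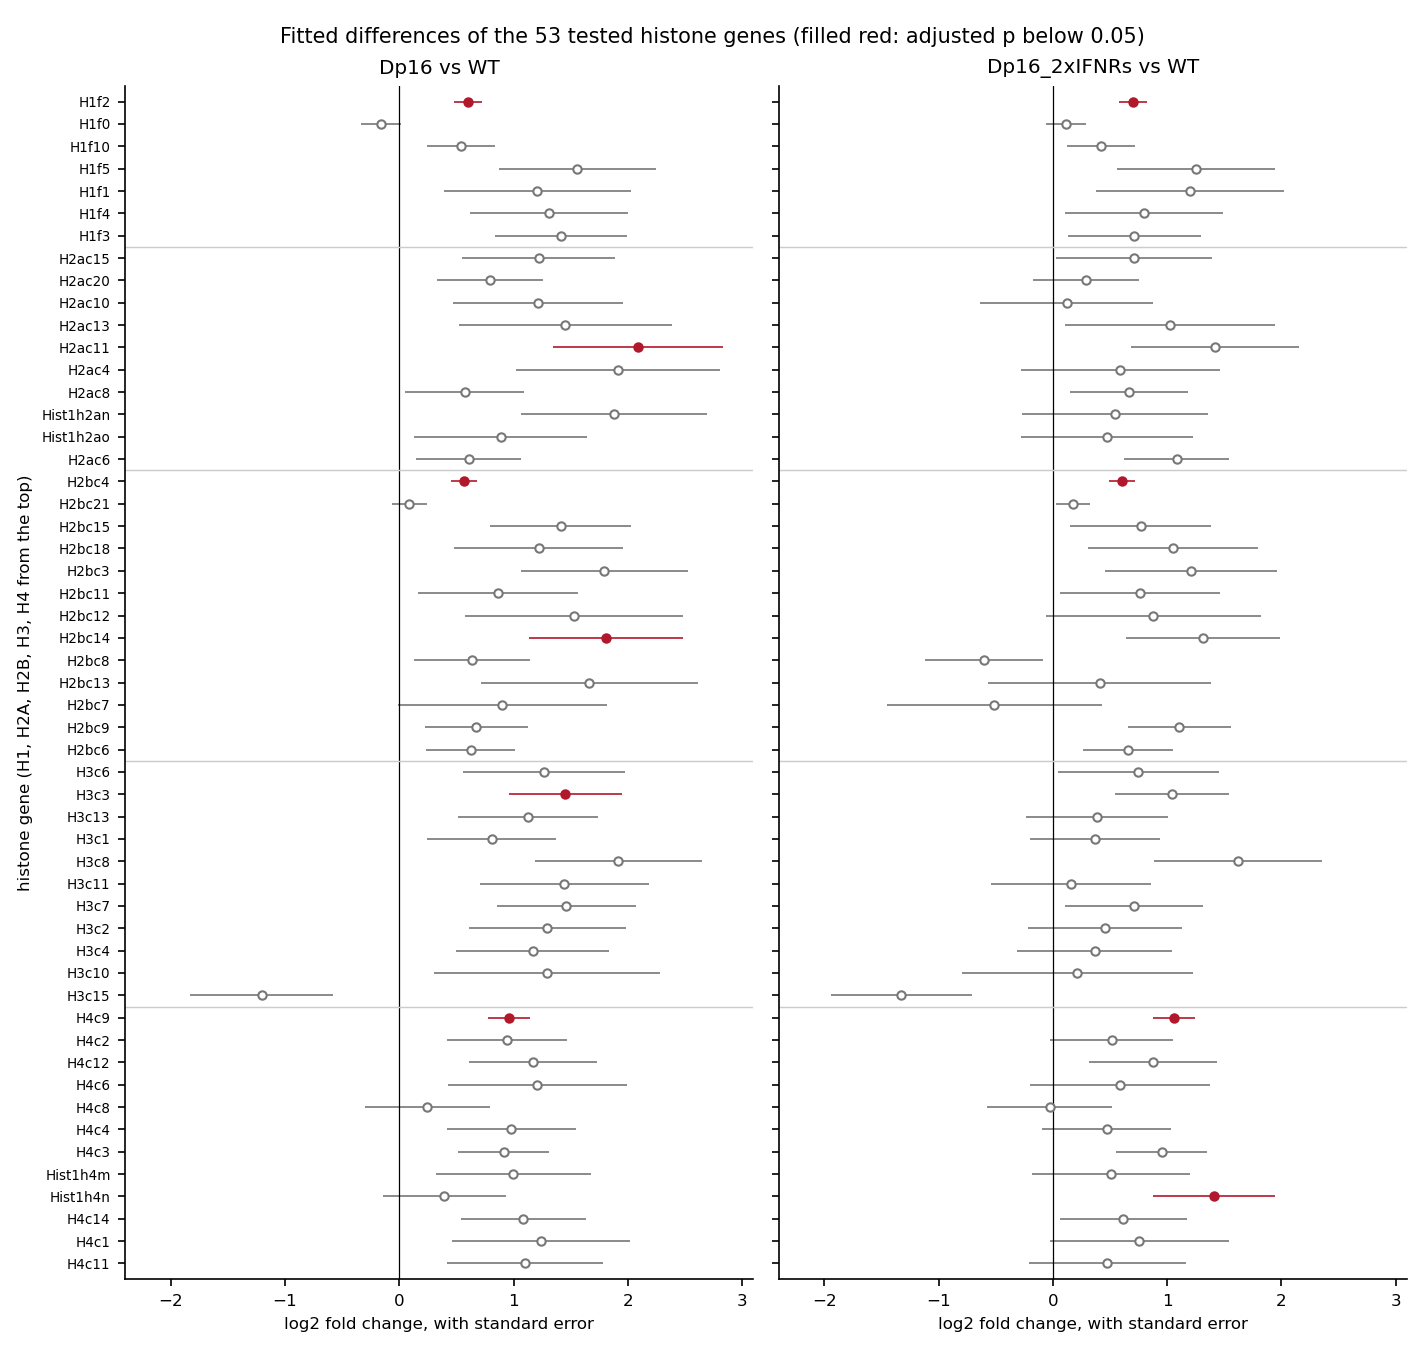
Log2 fold change with standard error of each of the 53 tested members in Dp16 (left) and Dp16_2xIFNRs (right) against the same 6 WT samples, by class, with called members filled in red. The short error bars of H1f2, H2bc4 and H4c9 (SE 0.11 to 0.18) set them apart from the other called members (SE 0.50 to 0.74).

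Between Dp16_2xIFNRs and Dp16, which differ in receptor dose, no member was called, and 4 genes of 18634 were called lower (0.0215%) and none higher. Those 4 were the receptor genes Ifnar1, Ifnar2, Ifngr2 and Il10rb, at -0.46, -0.59, -0.57 and -0.54. DESeq2, limma voom and limma on RPKM also called 0 members. Beside 438 of all 18634 genes, 1 of 53 members had an unadjusted p under 0.05. That member was H2bc8, an H2B gene, at -1.24 (SE 0.52, unadjusted p = 0.0258, adjusted p = 1 by edgeR's quasi-likelihood test). Differences for the abundant genes were small beside their error, at 0.10 (SE 0.12) for H1f2, 0.03 (SE 0.11) for H2bc4 and 0.09 (SE 0.18) for H4c9, while Hist1h4n stood at 1.01 (SE 0.52). Over all members 42 values were negative and 11 positive, with a median of -0.49 that became -0.07 without Dp16 replicate 3 and -1.03 without Dp16_2xIFNRs replicate 5.

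Between females and males no member was called by edgeR's quasi-likelihood test, DESeq2, limma voom or limma on RPKM. Of all genes 0.204% were called higher and 0.0537% lower in females (0.258% either way). Of 53 members 0 had an unadjusted p under 0.05, beside 1644 of all 18634 genes. The median difference of the members, female minus male, was -0.04. The interaction of sex with genotype gave 0 calls among members in each of 3 contrasts and 0% among all genes. Members under an unadjusted p of 0.05 numbered 1, 0 and 0, beside 439, 745 and 425 of all 18634 genes.

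The summed level of the 54 members showed the same split between abundant and scarce genes. It was 161 ± 36.4 CPM in WT, 231 ± 58.4 in Dp16 and 220 ± 42.7 in Dp16_2xIFNRs samples (mean ± SD, n = 6). The 11 members averaging 100 counts or more summed to 131 ± 21.6, 170 ± 21.4 and 174 ± 17.8 CPM, and the 43 others to 30.2 ± 15.1, 60.9 ± 39.7 and 45.8 ± 29.4. The groups of samples overlapped in the scarce sum, from 17.7 to 58.8 in WT, 24.1 to 110.5 in Dp16 and 24.9 to 103 in Dp16_2xIFNRs samples. Without the 4 libraries richest in Gm42418, the scarce sum was 30.4 ± 16.9 CPM in WT (n = 5), 36.2 ± 14.0 in Dp16 (n = 4) and 34.4 ± 9.86 in Dp16_2xIFNRs (n = 5), and the abundant sum 131.5 ± 24.1, 159 ± 15.7 and 170 ± 15.2 CPM.

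A few libraries carried that spread. Dp16 replicates 2 and 3 had 110.5 and 109.9 CPM from the 43 scarce members and Dp16_2xIFNRs replicate 5 had 103. WT replicate 2 was the highest WT sample for 42 of the 54 members, Dp16_2xIFNRs replicate 5 the highest of its group for 37, and Dp16 replicates 2 and 3 were the top 2 of theirs for 36, including 31 of the 43 scarce members and 5 of the 11 abundant ones. For 38 DNA replication genes Dp16 replicates 2 and 3 were the top 2 for 1 gene, and Dp16 replicate 2 was the lowest of its group for 24. Dp16 replicates 2 and 3 and Dp16_2xIFNRs replicate 5 are also 3 of the 4 libraries richest in Gm42418 and had the highest Rn7sk of their groups. WT replicate 4, the fourth, had the highest Rn7sk of WT at 105 CPM but only 29.6 CPM of scarce members, and it was the lowest WT sample for 34 of the 38 replication genes. The part of RNA without poly(A) tails in the members' differences was not tested.

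**Figure D4:**
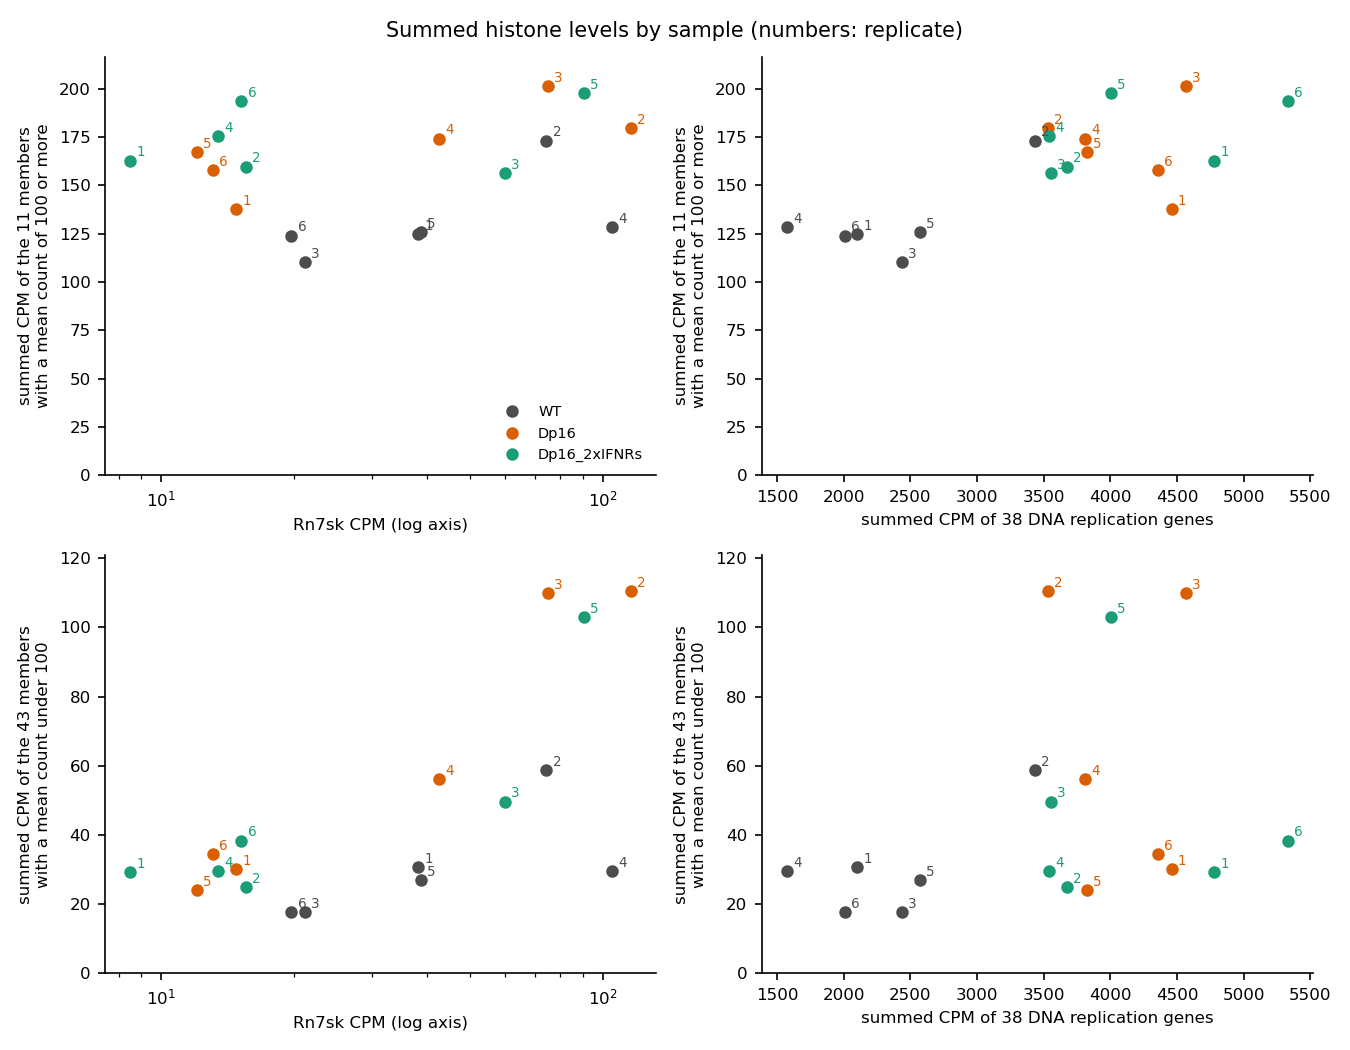
Summed CPM of the 11 abundant and the 43 scarce members in each sample, against Rn7sk (CPM, log axis) and against the summed CPM of 38 DNA replication genes, with samples numbered by replicate and coloured by genotype. Dp16 replicates 2 and 3 and Dp16_2xIFNRs replicate 5 lie at 103 to 110.5 CPM of scarce members, above the other samples, whose highest is 58.8.

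The count of called members moved with single libraries as well. It was 16 in Dp16 and 11 in Dp16_2xIFNRs without WT replicate 2, and 3 in Dp16 without Dp16 replicate 2 or 3 or WT replicate 1, 3, 4 or 5. Without WT replicate 2, that is 30.2% and 20.8% of members, beside 16.4% and 16.8% of all genes. In the fits with 3 calls it is 5.66%, beside 14.4% to 16.05% of all genes. H1f2, H2bc4 and H4c9 were called in each of these fits. With the log2 share of Gm42418 as a term, an alternative added after seeing the data, 16 members were called higher in each of the WT contrasts. That is 30.2% of the members in each, beside 16.6% and 17.5% of all genes.

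Genes that make and process histone mRNA went both ways. Of 21 such genes, 5 rose and 3 fell in Dp16 and 4 rose and 3 fell in Dp16_2xIFNRs, with medians of 0.00 and 0.01. The share called higher was 23.8% and 19.05%, beside 16.6% and 17.3% of all tested genes. Of all genes 13.2% and 14.2% were called lower. Slbp, which encodes the stem-loop binding protein, rose by 0.90 (SE 0.13) and 0.94, from 94.3 ± 20.8 CPM in WT to 161 ± 17.6 in Dp16 and 166 ± 31.6 in Dp16_2xIFNRs (mean ± SD, n = 6). All 12 samples of these groups lay above all 6 WT samples. The share of all genes that separate in this way was not counted. Ncbp1, of the cap-binding complex, rose by 0.29 and 0.30. Tut4, a terminal uridylyltransferase that acts on histone mRNA decay, fell by 0.64 and 0.73, Cstf2t, a cleavage factor paralogue, fell by 0.40 and 0.30, and Pou2f1, which encodes the octamer-binding factor OCT1, fell by 0.49 and 0.55. The other genes called higher in Dp16 were Eri1 (0.29), Srrt (0.23) and Cpsf2 (0.22). Those calls were lost without Dp16 replicate 1 or 4 or WT replicate 4 for Eri1, Dp16 replicate 3 or WT replicate 6 for Srrt, and Dp16 replicate 1 for Cpsf2. Without the 4 libraries richest in Gm42418 the list had 3 genes higher and 4 lower in Dp16, with Eri1 at 0.28 (adjusted p = 0.0572 by edgeR's quasi-likelihood test) and Srrt at 0.19 (adjusted p = 0.117).

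Genes of histone chaperones and of the histone supply to chromatin mostly rose, with 14 of 21 called higher and 1 lower in each of the WT contrasts (medians 0.38 and 0.33). That is 66.7% called higher, beside 16.6% and 17.3% of all tested genes. Chaf1b, a subunit of chromatin assembly factor 1 that lies in the triplicated segment, rose by 1.79 in Dp16 and 1.84 in Dp16_2xIFNRs, and its partner Chaf1a, which lies outside it, by 1.03 and 1.00. Nasp, which binds H3 and H4, rose by 0.75 and 0.68, Hat1, the acetyltransferase of new H4, by 0.69 and 0.75, and Asf1a, which hands H3 and H4 on, by 0.54 and 0.55.

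Variant histone genes lie outside the clusters and mostly have polyadenylated mRNAs. Of 11 on the list, which holds the members H1f0 and H1f10 too, 7 rose and none fell in each of the WT contrasts (medians 0.45 and 0.42). The share called higher, 63.6%, stood beside 16.6% and 17.3% of all tested genes. Cenpa, the centromeric H3, rose by 1.14 and 1.15, H2ax, the H2A of DNA damage signalling, by 0.76 and 0.81, H2az1, an H2A.Z gene, by 0.74 and 0.82, and H2aj by 0.45 and 0.53.

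Genes of S phase rose on both lists that hold them. Of 38 DNA replication genes 37 rose and none fell in each of the WT contrasts (medians 0.93 and 0.98), for example Mcm2, a helicase subunit, by 0.92 and 0.92, Dut, the dUTPase, by 1.06 and 1.11, and Rfc5, of the clamp loader, by 0.81 and 0.79. Of 16 S phase regulators 15 and 14 rose (medians 1.02 and 1.00), among them E2f1 (1.03 and 0.99) and Dbf4 (0.97 and 0.92). Called higher in Dp16 were 97.4% of the replication genes and 93.75% of the regulators, beside 16.6% of all tested genes. In Dp16_2xIFNRs the shares were 97.4% and 87.5%, beside 17.3%. All these lists had 0 calls in Dp16_2xIFNRs against Dp16.

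Markers of spleen cell types moved in the same contrasts, Dp16 and Dp16_2xIFNRs against WT. Over all tested genes 16.6% and 17.3% were called higher in them, and 13.2% and 14.2% lower. All 25 tested erythroid genes rose in Dp16 and in Dp16_2xIFNRs (medians 1.66 and 1.69), with summed levels of 6369 to 23000 CPM in WT, 24260 to 42480 in Dp16 and 23240 to 45810 in Dp16_2xIFNRs samples. Hbb-bt, an adult beta-globin gene, rose by 1.66 and 1.67 and Car1, carbonic anhydrase 1, by 1.45 and 1.47. Of 20 neutrophil genes 18 rose and none fell in each (medians 2.51 and 2.34), with sums of 603 to 2364, 3438 to 11830 and 4031 to 6650 CPM. The smallest p among them in Dp16 were those of Ms4a3 (3.06 and 2.79) and Fcnb (2.53 and 2.42), both made by granulocyte precursors. Of 15 B cell genes none rose and 14 fell (medians -0.65 and -0.59), with sums of 4666 to 7107, 3056 to 3847 and 3204 to 4117 CPM, for example Fcmr, the IgM receptor, which fell by 0.89 and 0.92, and Cr2, a complement receptor, which fell by 0.77 and 0.82. The part of these cell types in the histone differences was not tested, and since the neutrophil and erythroid sums of WT samples do not overlap those of the other genotypes, marker level and genotype cannot be told apart.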

How the data were processed

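The authors deposited raw counts per gene and RPKM values for 18 spleen samples, in tables whose names give GENCODE vM24 gene models. Per the labels' protocols, total RNA was extracted with TRIzol, enriched for poly(A) RNA, made into strand-specific libraries and sequenced in pairs on an Illumina instrument. The tools HISAT2 2.1.0 and HTSeq 0.6.1 and the build GRCm38 stand in the submitters' processing notes with no role given, as do SAMtools 1.5, FastQC 0.11.5 and bcl2fastq; the strand setting and the handling of reads with several matches are not given in the sources used here. The authors' RPKM equals the deposited count scaled by library total and gene length to a relative deviation of at most 6.7e-16 over 11538 genes.

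Counts were fitted in edgeR 4.0.16 (R 4.3.3) with TMM scaling, filterByExpr by genotype and the robust quasi-likelihood test, with genotype and sex as terms and all 18 samples in 1 fit. Benjamini-Hochberg adjustment ran over 18634 genes, and a gene was called at adjusted p below 0.05. CPM are counts over the library total. Alternatives were DESeq2 1.42.0, limma 3.58.1 (voom, and trend on log2(RPKM + 0.1)), other scalings, filters and terms, and leaving out each sample. The fit was tried on simulated counts, without the sex term and with the same dispersion for every gene. That simulation does not cover genes as variable as the members. No 2 libraries were copies. P-values measure the spread between samples, since the labels do not say that each is a separate animal.

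Transcripts, overlaps and stem-loops came from GENCODE vM21, and promoters from RefSeq. Genes described were the 3 members of each class with the highest RPKM, those with the smallest p in each contrast, and of each list the 2 genes, or for the 3 histone-related lists the 8, with the smallest p. Members, lists and tests were chosen with earlier results of these data known.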

Additional observations from a re-analysis of the deposited data

Results flagged for a closer look

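In 84 groups of 6 samples, made of the named members and their sum in each genotype, 9 had a sample set apart from the other 5 by a gap larger than Dixon's limit. Chance flags about 1 in 20 such groups, and genes that share a library are not independent. Of the 9, 5 were in Dp16_2xIFNRs replicate 5: H2ac15 at 5.72 CPM (the others 0.851 to 2.09), H2ac10 at 1.47 (0 to 0.473), H2bc15 at 3.40 (0.827 to 1.58), H3c3 at 3.96 (0.792 to 1.61) and H4c2 at 5.30 (0.792 to 1.28). That library held 4.40% of its counts on Gm42418, beside 0.691% to 2.44% in the other 5 of its group.

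The other 4 lay in different libraries. H2ac20, an H2A gene, stood at 3.07 CPM in WT replicate 1 (the others 0.759 to 1.46). H2bc21 was at 22.2 CPM in Dp16_2xIFNRs replicate 1 (12.7 to 13.7), and H2bc7, an H2B gene, at 1.97 in Dp16 replicate 2 (0.188 to 0.756). The sum of all members was 231.9 CPM in WT replicate 2, where the other WT samples lay at 127.8 to 157.8.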

How the results depend on the processing

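The number of members called higher in Dp16 against WT was 6. It was 17 with the last number of the sample description as a block, 12 with DESeq2, 16 with a Gm42418 term, 13 at adjusted p below 0.1, 0 with erythroid and neutrophil terms, and 3 without the 4 libraries over 4% Gm42418, among members averaging 100 counts, or among members with 80% unique windows. In the first 3 of these fits the members' shares were 32.1%, 22.6% and 30.2%, beside 9.08%, 17.0% and 16.6% of all genes. Without the 4 libraries the shares were 5.77% and 13.1%. In the main fit, the 3 calls were 27.3% of the 11 members averaging 100 counts and 15.8% of the 19 with 80% unique windows. They stood beside 11.3% of all tested members and 16.6% of all genes. The share of all genes at adjusted p below 0.1 was not counted. The description block had no sex term, and samples with a number of their own added nothing to its contrasts. Leaving out each sample gave 3 to 16 members called higher. Against 0 called lower, the description block gave 1 (H1f0) and limma on RPKM 1 (H3c15). The median of 1.17 became 2.69 with the description block and 0.39 without the 4 libraries, and ran from 0.61 without Dp16 replicate 3 to 1.57 without WT replicate 2. In Dp16_2xIFNRs against WT the 4 called higher became 12 with the description block, 16 with the Gm42418 term, 7 at adjusted p below 0.1, 2 among members with 80% unique windows and 0 with erythroid and neutrophil terms, with 3 to 11 when a sample was left out. Limma on RPKM called 1 lower (H3c15). With the description block and the Gm42418 term, 22.6% and 30.2% of members stood beside 14.3% and 17.5% of all genes. The 2 calls among the 19 members with 80% unique windows were 10.5%, beside 17.3% of all genes. The median of 0.66 in this contrast was 1.48 with the description block and ran from 0.22 without Dp16_2xIFNRs replicate 5 to 1.10 without WT replicate 2. Dp16_2xIFNRs against Dp16 stayed at 0 calls in all fits that left out a sample, with medians from -1.03 to -0.07, and the sex median ran from -0.35 to 0.26. With erythroid and neutrophil terms H1f2 was at -0.56 and -0.40, Pou2f1 at 0.36 and 0.26 and H3f3a at -0.13 and -0.10 in the WT contrasts, and 0 of 18634 genes were called higher and 1 lower in each; the causes were not tested. The other named list genes lost their calls there too.

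Sample numbers did not pair the samples: 18 same-number pairs correlated at -0.181 to 0.196, with 5 over 0.1, and 3 of 18 samples were closest to their own number. With the replicate block 4 and 3 members were called higher, at medians of 0.95 and 0.64. Over all genes 3091 were called higher and 2462 lower in Dp16, 2558 and 3333 with upper quartile scaling, and 2220 and 3924 on RPKM, where the median of all genes was -0.13. The 43 members averaging under 100 counts had a median standard error of 0.68 in Dp16 against WT and the 11 others 0.30; what part of the error is depth was not tested.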

Other observations

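Other spleen cell lists gave these values in Dp16 and in Dp16_2xIFNRs against the same WT samples. Beside them, 16.6% and 17.3% of all tested genes were called higher and 13.2% and 14.2% lower. Of 12 megakaryocyte genes all 12 rose in both (medians 1.22 and 1.15), for example Gp9 and Clec1b, receptors of the platelet lineage. Of 9 germinal centre genes 5 rose and 1 fell in each, with a median of 0.60 in Dp16; without the 4 libraries over 4% Gm42418, 0 and 1 of the 9 rose and none fell. Of 12 T cell genes none rose and 2 fell in each, with a median of -0.11 in Dp16. Plasma cell genes had 1 of 8 higher and 1 lower in each (medians 0.21 and 0.42), and of 11 red pulp macrophage genes 3 and 4 rose and none fell. Of 14 pancreatic acinar genes, which mark tissue that lies against the spleen, 4 were at 0 in all samples, 2 could be tested and 1 of these was higher in Dp16. All these lists had 0 calls in Dp16_2xIFNRs against Dp16, and their part in the histone values was not tested.

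Members with a poly(A) signal in the last 50 bases of the annotated transcript summed to 108 ± 16.8 CPM in WT, 131 ± 13.2 in Dp16 and 140 ± 13.4 in Dp16_2xIFNRs samples (mean ± SD, n = 6). Members without it summed to 52.95 ± 20.3, 99.6 ± 51.8 and 79.8 ± 39.1 CPM, with the larger spread in Dp16 and Dp16_2xIFNRs samples. Without the 4 libraries over 4% Gm42418 the sums were 108 ± 18.8 (n = 5), 128 ± 15.1 (n = 4) and 139 ± 14.7 (n = 5) with the signal, and 53.5 ± 22.6, 67.6 ± 18.8 and 64.8 ± 15.0 without it. The median coefficient of variation over all members was 63.3% in WT, 74.8% in Dp16 and 70.5% in Dp16_2xIFNRs samples.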
